A study of Mus musculus with 28 samples.

Results

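Bile acid synthesis in the liver was described through 10 genes, named by symbol, out of 22187 genes in the table. They are the 8 enzymes Cyp7a1, Cyp8b1, Cyp27a1, Cyp7b1, Hsd3b7, Akr1d1, Slc27a5 and Baat, and the 2 nuclear receptors Nr1h4 (FXR) and Nr0b2 (SHP). All 10 were found by symbol and all 10 passed the filter on low values in each fit. Bulk RNA sequencing covered 28 liver libraries in 8 groups, 14 from tumors and 14 from non-tumor liver. All mice were C57BL/6, carried 2 floxed alleles of the interleukin-17 receptor A gene (IL17RA_floxflox), received the liver carcinogen diethylnitrosamine (DEN, 25 mg/kg at 2 weeks of age), and were then fed for 18 weeks. FF mice carried the floxed alleles alone. dHEP mice also carried AlbCre, a Cre recombinase driven by the albumin promoter, which is active in hepatocytes and recombines the floxed alleles there. Bile duct cells, which share a precursor with hepatocytes, can also recombine. The diet was chow or an alcohol diet, which the labels call HFD_alcohol and the study's design text describes as liquid ethanol feeding. Each genotype contributed n = 4 tumor and n = 4 non-tumor libraries on alcohol and n = 3 of each on chow, and no library came from a mouse without DEN.

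Values are CPM, in which the counts of each library sum to 1000000. Estimated depth was 9.57 to 17.82 M reads (M, 1000000 reads). Il17ra, the targeted gene, lay at 14.7 to 31 CPM in non-tumor liver of FF mice and at 8.34 to 13 CPM in dHEP mice, with no overlap. In tumors its ranges overlapped, at 20.8 to 33.9 CPM in FF and 8.38 to 29.4 CPM in dHEP mice. The labels do not say that the libraries of a group came from separate animals, so the p-values measure only the spread between these samples. Sample numbers ran from FF-503 up to FF-595 on alcohol and from dHEP-155 up to FF-169 on chow. The labels do not say what the numbers stand for, and anything that goes with them cannot be told apart from diet. Several libraries stood apart. The summed level of 6 tumor markers was 395.2 CPM in non-tumor library FF-581 and 338.8 CPM in FF-523, against at most 98.4 CPM in the other non-tumor libraries. Tumor dHEP-549 had the lowest tumor marker sum of all tumors, at 135.6 CPM. In non-tumor liver FF-158 the summed level of 12 female-biased liver genes was 1982.7 CPM, against at most 261.9 CPM elsewhere in non-tumor liver. Dbp, a gene driven by the circadian clock, was at 1.22 CPM in FF-158 and 1.56 CPM in dHEP-155.

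Hepatocytes turn cholesterol into bile acids by 2 routes. The classic route starts with CYP7A1, its rate-limiting enzyme, and CYP8B1 then decides how much cholic acid is made. The alternative route starts with side chain oxidation by CYP27A1 and continues with CYP7B1. HSD3B7 and AKR1D1 reshape the sterol ring in both, and SLC27A5 and BAAT link bile acids to coenzyme A and then to taurine or glycine. Bile acids bind FXR, which induces SHP. SHP represses Cyp7a1 and Cyp8b1 by inhibiting their activators, the receptor LRH-1 (Nr5a2) and HNF4A. Cyp7a1 is also known for its daily rhythm and for its place in the hepatocytes near the central vein.

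The genes lie on 7 chromosomes of GRCm38 and all are protein-coding. Those of the classic route are Cyp7a1 (ENSMUSG00000028240, chr4:6265612-6275633, minus strand) and Cyp8b1 (ENSMUSG00000050445, chr9:121914356-121916305, minus strand, a single-exon gene whose span of 1950 bases is also its exon length). Those of the alternative route are Cyp27a1 (ENSMUSG00000026170, chr1:74713574-74737892, plus strand) and Cyp7b1 (ENSMUSG00000039519, chr3:18071950-18243338, minus strand). The ring enzymes are encoded by Hsd3b7 (ENSMUSG00000042289, chr7:127800604-127803802, plus strand) and Akr1d1 (ENSMUSG00000038641, chr6:37530173-37568815, plus strand). The conjugating enzymes are encoded by Slc27a5 (ENSMUSG00000030382, chr7:12988346-12998192, minus strand) and Baat (ENSMUSG00000039653, chr4:49489422-49506557, minus strand). The receptors are Nr1h4 (ENSMUSG00000047638, chr10:89454234-89533585, minus strand) and Nr0b2 (ENSMUSG00000037583, chr4:133553376-133556536, plus strand).

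Promoter windows of 250 bases before the RefSeq start (GRCm38.p6) were matched by symbol for 6 of the 10 genes. Cyp7a1, Cyp7b1, Slc27a5 and Baat had none. The 3 windows below are shown because Cyp8b1 fell in all tumor comparisons, Nr0b2 in 1 of 4 and Cyp27a1 in all 4. They also hold matches to search patterns for factors measured in the same libraries. Capitals mark matches, searched on both strands, to CAAGGNCA (NR5A2), CAAAGTNCA (HNF4A), TTATGNAA (a loose form of the D-box bound by DBP) and TATAAA (the TATA box). N stands for any base, so a match to TTATGNAA need not be a D-box. Each runs 5′ to 3′ on the strand of its gene.
Cyp8b1: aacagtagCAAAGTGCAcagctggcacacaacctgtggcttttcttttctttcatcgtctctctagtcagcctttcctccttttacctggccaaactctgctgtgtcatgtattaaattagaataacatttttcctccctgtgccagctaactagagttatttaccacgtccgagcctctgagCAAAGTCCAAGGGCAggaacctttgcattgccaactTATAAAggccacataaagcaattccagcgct
Nr0b2: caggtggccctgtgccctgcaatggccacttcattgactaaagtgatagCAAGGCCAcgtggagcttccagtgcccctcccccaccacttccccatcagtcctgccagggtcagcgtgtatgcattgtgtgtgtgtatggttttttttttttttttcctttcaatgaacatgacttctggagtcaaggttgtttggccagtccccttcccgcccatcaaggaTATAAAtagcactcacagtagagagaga
Cyp27a1: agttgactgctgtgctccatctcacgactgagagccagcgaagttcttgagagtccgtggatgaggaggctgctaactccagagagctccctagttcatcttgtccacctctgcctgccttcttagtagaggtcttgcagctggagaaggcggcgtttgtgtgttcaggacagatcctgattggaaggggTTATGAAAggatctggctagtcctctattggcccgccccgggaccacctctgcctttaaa
The Cyp8b1 window lies at chr9:121916306-121916555 on the minus strand, the Nr0b2 window at chr4:133553126-133553375 and the Cyp27a1 window at chr1:74713285-74713534, both on the plus strand. In Cyp8b1 the match CAAAGTCCA ran from -67 to -59 and shared 2 bases with CAAGGGCA at -60 to -53, and CAAAGTGCA lay at -242 to -234. Nr0b2 held CAAGGCCA at -201 to -194. Both had TATAAA, at -31 to -26 in Cyp8b1 and -28 to -23 in Nr0b2. Cyp27a1 held TTATGAAA at -60 to -53, and the Akr1d1 window TTATGCAA at -8 to -1. No match was found in the windows of Hsd3b7 and Nr1h4, the last of which starts inside the annotated span of its gene. Of 32851 windows of the same length, 5.53% held CAAGGNCA, 1.19% CAAAGTNCA, 3.07% TTATGNAA and 12.37% TATAAA. These matches describe the letters only. Among the factors themselves, no tissue comparison called Hnf4a, Nr5a2 or Dbp. Hnf4a, for example, was at 674.1 ± 166.6 CPM (SD, n = 4) in FF alcohol non-tumor liver and 521.1 ± 35.5 CPM (n = 4) in its tumors.

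Per kilobase of exon, the conjugating enzyme gene Slc27a5 had the highest median level of the 10 in non-tumor liver, at 376.1 CPM per kb over 14 libraries. Cyp27a1 followed at 205.6, Hsd3b7 at 155.2, Cyp8b1 at 134.5, Cyp7b1 at 131.5 and Baat at 124.2 CPM per kb. Nr1h4 at 59, Akr1d1 at 49.1, Cyp7a1 at 45.6 and Nr0b2 at 21.3 CPM per kb were lower. The library ranges of Cyp8b1, Cyp7b1 and Baat overlapped, and so did those of Nr1h4, Akr1d1 and Cyp7a1. The genes differed more in how far they varied. The highest non-tumor library was 16.8 times the lowest for Cyp7a1, 7.7 times for Cyp7b1, 7.0 times for Akr1d1 and 4.7 times for Nr0b2. It was at most 2.7 times the lowest for the other 6 genes, and 1.4 times for Baat.

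**Figure D1:**
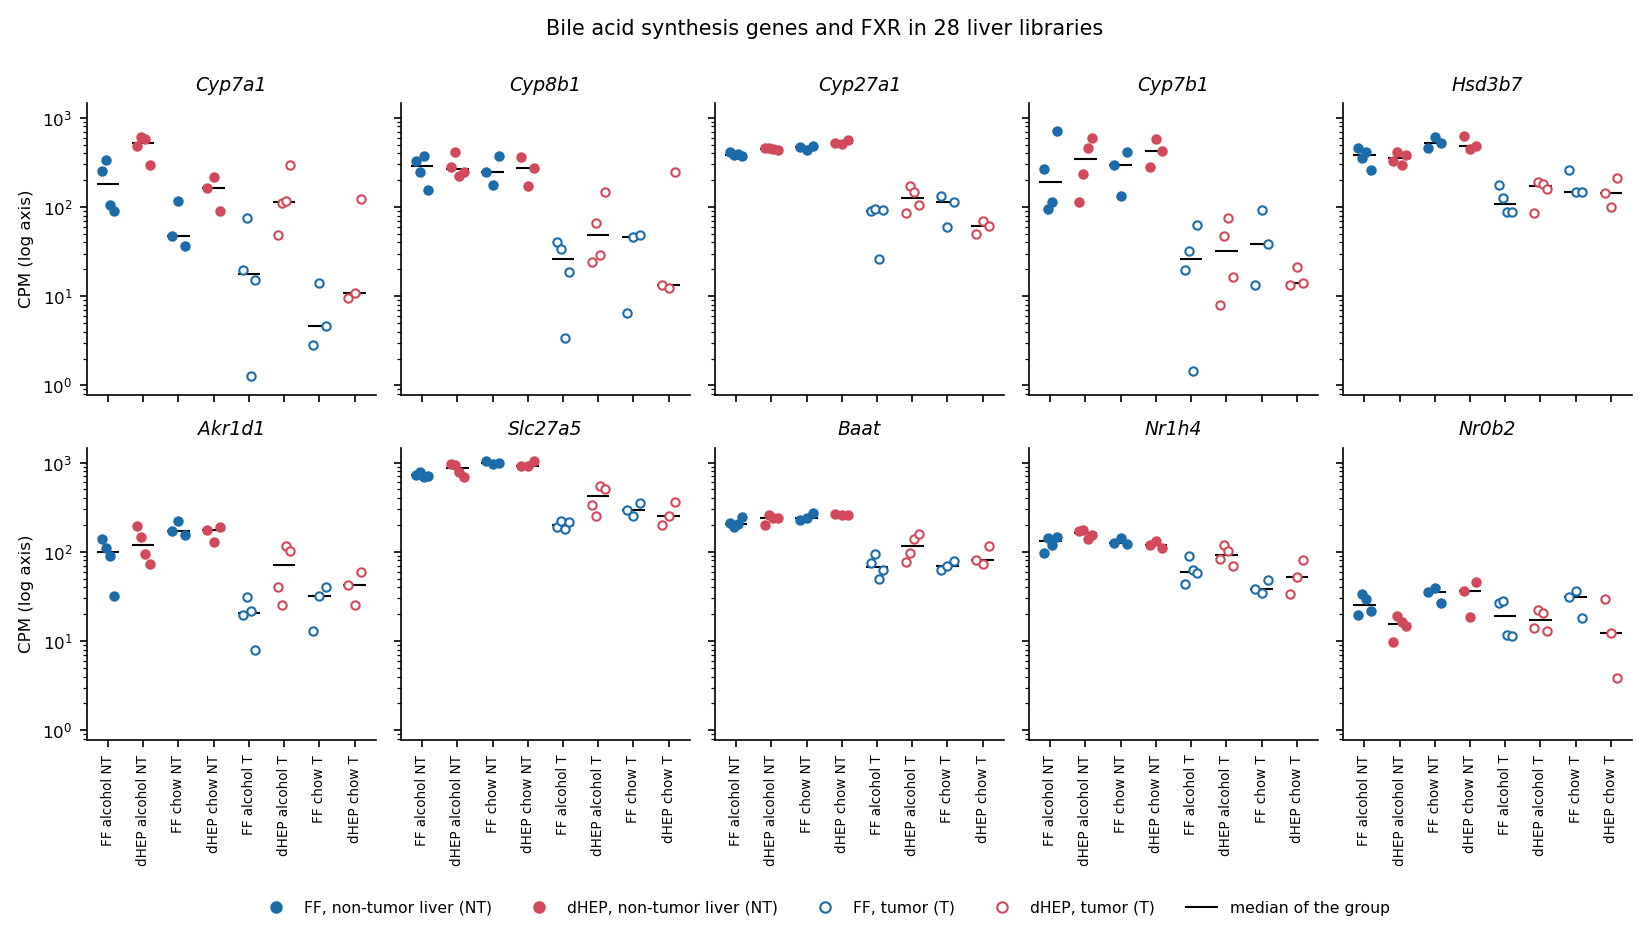
CPM of the 10 genes (log scale) in each of the 28 libraries, by genotype, diet and tissue, with 1 point for each library. All 14 tumors lie below every non-tumor library for Cyp27a1, Cyp7b1, Hsd3b7, Slc27a5 and Baat, while Nr0b2 overlaps throughout.

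Tumors carried less RNA of all 8 enzymes than non-tumor liver. The tumor median was 7.2% of the non-tumor median for Cyp7b1, 9.2% for Cyp7a1, 12.1% for Cyp8b1, 20.4% for Cyp27a1, 22.3% for Akr1d1, 27.6% for Slc27a5, 32.1% for Baat and 34.0% for Hsd3b7. FXR kept 44.1% and SHP 80.7%. All 14 tumors lay below every non-tumor library for Cyp27a1, Cyp7b1, Hsd3b7, Slc27a5 and Baat, 13 did for Cyp8b1, 12 for Nr1h4, 8 for Cyp7a1, 7 for Akr1d1 and 1 for Nr0b2. In bulk tissue, fewer cells that express a gene and less RNA per cell cannot be told apart.

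The difference was tested in each genotype and diet with limma on log2(CPM + 1), in a fit of all 28 libraries and 13503 genes, and genes with an adjusted p below 0.05 counted as changed. In FF mice 9 of the 10 genes fell on alcohol and 9 on chow, where 10.6% and 9.55% of all genes fell. Among dHEP mice 7 fell on alcohol and 10 on chow, against 7.54% and 10.7% of all genes. None rose. Median-of-ratios scaling between libraries left those counts of the 10 at 9, 9, 7 and 10, while over all genes the split of higher and lower calls moved from 2864 and 1289 to 2379 and 2089 in FF chow, from 1736 and 1018 to 1606 and 1639 in dHEP alcohol, and from 2328 and 1441 to 1982 and 2052 in dHEP chow. The tumor and non-tumor libraries did not overlap, with tumors lower, for 9 genes in FF alcohol, 9 in FF chow, 7 in dHEP alcohol and 7 in dHEP chow, where this held for 12.4%, 15.7%, 7.38% and 15% of all genes. The median log2 difference over the 10 genes was -1.99, -2.02, -1.17 and -1.92 in the same order, beside 0.05, 0.16, 0.09 and 0.14 over all genes.

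**Figure D2:**
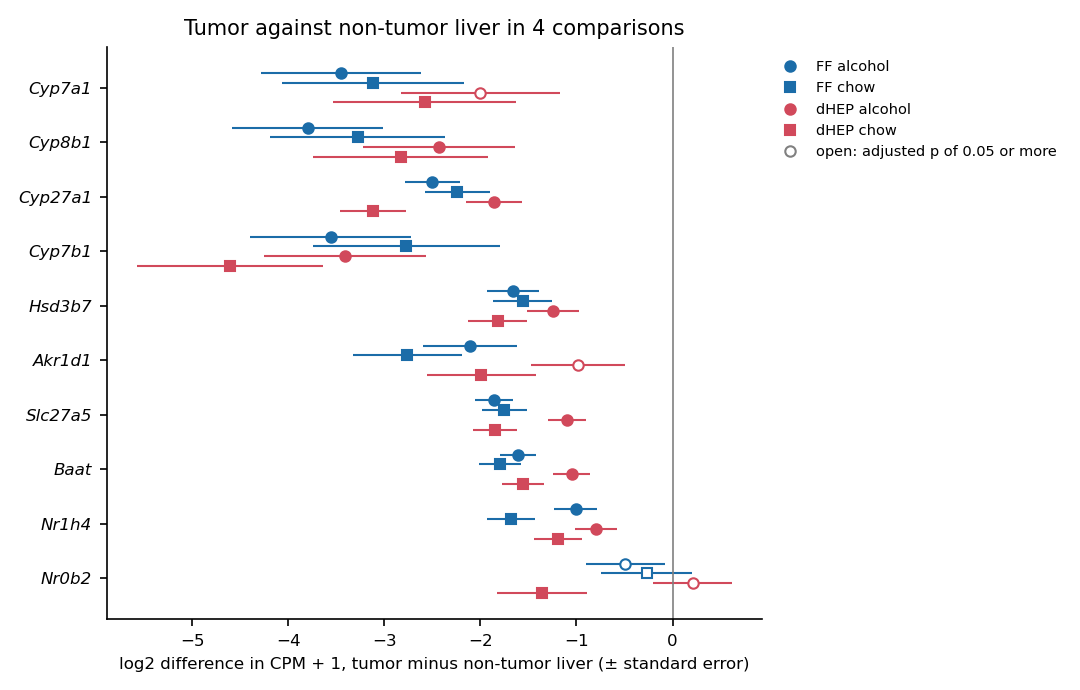
Difference between tumor and non-tumor liver for each of the 10 genes, as log2 fold change on the log2(CPM + 1) scale with its standard error, in the 4 genotype and diet groups. The enzymes lie between -0.98 and -4.61, and Nr0b2 between 0.21 and -1.36.

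Cyp7a1, which sets the rate of the classic route, had the widest spread of the 10 genes among the non-tumor libraries, where its highest level was 16.8 times its lowest, and among the tumors, where it was 237.4 times. In FF alcohol mice its non-tumor levels were 253.3 CPM in FF-503, 331.9 in FF-523, 105.9 in FF-581 and 90.7 in FF-595, and the tumors of the same numbers had 19.9, 75.7, 1.26 and 15.1 CPM. Values of these mice are given in the same order from here on. The 2 sets did not overlap, and the log2 difference was -3.45 ± 0.83 (SE, adjusted p = 0.0035), a 10.92-fold lower level. It was -2.52 without tumor FF-581 (adjusted p = 0.02) and -4.22 without tumor FF-523 (0.00071). On chow, FF non-tumor liver had 47.7, 115.2 and 36.4 CPM and tumors had 2.81, 13.9 and 4.65 CPM (-3.12 ± 0.95, adjusted p = 0.016). On each diet every FF tumor lay below every FF non-tumor library. The chow call was lost without tumor FF-167 (adjusted p = 0.07) or non-tumor FF-158 (0.065).

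In dHEP mice the Cyp7a1 levels of tumor and non-tumor liver overlapped on both diets. On alcohol the non-tumor level was 480.4 CPM in dHEP-518, 613.2 in dHEP-520, 572.2 in dHEP-549 and 292.8 in dHEP-550, and the tumors had 48.9, 109.8, 117.8 and 298.3 CPM. The difference of -2.0 ± 0.83 was not called (adjusted p = 0.09). It was called in a fit of those 8 libraries alone (0.022). On chow, libraries dHEP-155, dHEP-164 and dHEP-165 had 164.3, 216.4 and 90.7 CPM in non-tumor liver and 9.53, 10.9 and 121.8 CPM in tumors (-2.58 ± 0.95, adjusted p = 0.045). Tumor dHEP-165 exceeded 1 non-tumor library, and this call was lost in 5 of 6 fits that left out 1 library, with adjusted p up to 0.22 without tumor dHEP-155, and with a pseudocount of 0.5 (0.051). The difference was -1.96 without tumor dHEP-155 and -3.74 without tumor dHEP-165 (adjusted p = 0.0047).

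Cyp8b1, the 12-alpha hydroxylase of cholic acid synthesis, was steadier in non-tumor liver and low in most tumors. FF alcohol non-tumor liver had 323.5, 249.4, 371.9 and 154.5 CPM, and its tumors 40.2, 34.2, 3.44 and 18.5 CPM (-3.80 ± 0.79, adjusted p = 0.0011, 13.91-fold lower). Without tumor FF-581 the difference was -3.10 (adjusted p = 0.007). FF chow tumors had 6.43, 46.5 and 48.9 CPM, against 245.5, 174.7 and 369.4 CPM (-3.28 ± 0.91, adjusted p = 0.0091), a call lost without tumor FF-167 (-2.37, adjusted p = 0.074). All 7 FF tumors were thus far below FF non-tumor liver. dHEP tumors on alcohol had 24.1, 66.8, 29.1 and 145.8 CPM, against 278.9, 409.5, 223.5 and 246.8 CPM (-2.43 ± 0.79, adjusted p = 0.031). That call was lost in 5 of 8 fits without 1 library, with adjusted p up to 0.095 without tumor dHEP-518 and 0.075 without the low-marker tumor dHEP-549. On chow dHEP tumors had 13.5, 12.3 and 245.8 CPM, against 358.7, 169.8 and 275.3 CPM (-2.83 ± 0.91, adjusted p = 0.023). Tumor dHEP-165 was again high, and the call was lost in 4 of 6 fits without 1 library, with differences of -2.17 without tumor dHEP-155 (adjusted p = 0.14) and -2.10 without tumor dHEP-164 (0.11). Without tumor dHEP-165 the difference was -4.21 (0.00054).

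Cyp27a1, the mitochondrial sterol 27-hydroxylase, fell in all 4 comparisons with narrow errors. In FF alcohol mice non-tumor liver had 408.8, 378.9, 389.2 and 374.8 CPM, and tumors had 90.1, 95.8, 26.4 and 92 CPM (-2.5 ± 0.29, adjusted p = 3.8e-06). dHEP chow non-tumor liver had 514.8, 507.6 and 560.7 CPM and tumors had 49.7, 69.8 and 61.8 CPM (-3.12 ± 0.34, adjusted p = 1.2e-06, 8.68-fold lower). Every tumor was below every non-tumor library, also in FF chow (-2.24 ± 0.34, adjusted p = 6.1e-05) and dHEP alcohol (-1.86 ± 0.29, adjusted p = 0.00014). The tumor dHEP-165, in which Cyp7a1 and Cyp8b1 were high, had 61.8 CPM of Cyp27a1, within the range of the other chow dHEP tumors.

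Cyp7b1, the oxysterol 7-alpha hydroxylase of the alternative route, had the largest fall, in dHEP chow. Non-tumor liver there had 277.5, 579.1 and 422.7 CPM and tumors 13.4, 21 and 13.9 CPM (-4.61 ± 0.97, adjusted p = 0.0012, 24.37-fold lower). FF alcohol non-tumor liver had 264.5, 93.7, 114.5 and 718.8 CPM, and its tumors had 19.8, 32.4, 1.45 and 62.8 CPM (-3.56 ± 0.84, adjusted p = 0.003). The non-tumor levels were scattered but stayed above all tumors. That difference was -2.59 without tumor FF-581, -4.16 without tumor FF-595, -2.97 without non-tumor FF-595 and -4.59 without non-tumor FF-523 and FF-581, and was called each time. dHEP alcohol showed -3.41 ± 0.84 (adjusted p = 0.0056). For FF chow it was -2.77 ± 0.97 (adjusted p = 0.033), with tumors at 13.2, 92.2 and 38.1 CPM, a call lost without tumor FF-167 (-2.07, adjusted p = 0.16), tumor FF-169 (0.063), non-tumor FF-157 (0.088) or non-tumor FF-159 (0.12). Without tumor FF-168 the FF chow difference was -3.43 (0.021), and with sample quality weights -3.50 (0.0016).

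Of the 2 ring enzymes, Hsd3b7 (the 3-beta hydroxysteroid dehydrogenase of bile acid synthesis) fell by a steady 2.36- to 3.52-fold. It ranged from 261.2 to 620.0 CPM in non-tumor liver and from 86.2 to 257.6 CPM in tumors, and its log2 differences were -1.66 ± 0.27 (adjusted p = 0.00011) and -1.56 ± 0.31 (0.00076) in FF alcohol and chow, and -1.24 ± 0.27 (0.0024) and -1.82 ± 0.31 (0.00019) in dHEP alcohol and chow. Akr1d1, the delta-4-3-oxosteroid 5-beta reductase, did not fall everywhere. In dHEP alcohol non-tumor liver it had 193.2, 145.4, 95.6 and 72.7 CPM, and the tumors, in the same order of sample numbers, had 40.1, 25.6, 117.0 and 103.4 CPM (-0.98 ± 0.49, adjusted p = 0.17). Tumors dHEP-549 and dHEP-550 were higher than non-tumor liver of the same number. The other comparisons were called, with FF alcohol tumors at 19.6, 30.8, 21.6 and 7.92 CPM against 138.7, 110.6, 89.3 and 31.9 CPM (-2.11 ± 0.49, adjusted p = 0.0027). FF chow gave -2.76 ± 0.57 (0.00093) and dHEP chow -1.99 ± 0.57 (0.011).

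The conjugating enzymes fell in all 4 comparisons and left no overlap. Slc27a5, the bile acid coenzyme A ligase, had 731.8, 778.1, 694.0 and 706.1 CPM in FF alcohol non-tumor liver and 190.1, 219.8, 179.0 and 213.7 CPM in tumors (-1.86 ± 0.20, adjusted p = 1.4e-06, 3.62-fold lower). dHEP alcohol tumors had 337.8, 249.9, 552.7 and 501.1 CPM, against 977.3, 939.7, 792.7 and 681.5 CPM (-1.10 ± 0.20, adjusted p = 0.00049, 2.14-fold lower). Tumors dHEP-549 and dHEP-550 were the highest of all tumors for this gene. On chow the difference was -1.75 ± 0.23 (adjusted p = 1.4e-05) in FF and -1.85 ± 0.23 (5e-06) in dHEP mice. Baat, the amino acid N-acyltransferase, ranged from 191.4 to 274.7 CPM in non-tumor liver and had a median of 77.3 CPM in tumors. It fell by 1.61 ± 0.19 (adjusted p = 4.7e-06) and 1.80 ± 0.22 (9.9e-06) on the log2 scale in FF alcohol and chow, and by 1.05 ± 0.19 (0.00066) and 1.56 ± 0.22 (3e-05) in dHEP alcohol and chow.

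The receptors differed from each other. Nr1h4, the bile acid sensor FXR, fell in all 4 comparisons, by 2.01-, 3.20-, 1.74- and 2.27-fold in FF alcohol, FF chow, dHEP alcohol and dHEP chow. Its log2 differences were -1.01 ± 0.22 (adjusted p = 0.0016), -1.68 ± 0.25 (6.6e-05), -0.80 ± 0.22 (0.012) and -1.19 ± 0.25 (0.0014). The levels ranged from 96.3 to 176.1 CPM in non-tumor liver and from 33.7 to 118.4 CPM in tumors, and within each group the 2 tissues did not overlap. Nr0b2, the repressor SHP, was called in dHEP chow only, where non-tumor liver had 36.2, 18.6 and 45.4 CPM and tumors 29.7, 12.4 and 3.85 CPM (-1.36 ± 0.47, adjusted p = 0.034). Without tumor dHEP-165 the difference was -0.67 (adjusted p = 0.25), and 3 other fits without 1 library also lost it, without non-tumor dHEP-155 (0.096), non-tumor dHEP-165 (0.15) or tumor dHEP-164 (0.05). Without tumor dHEP-155 it was -2.0 (0.0032). Tumor dHEP-165 thus had the lowest Nr0b2 level of the 28 libraries together with the highest Cyp7a1 and Cyp8b1 levels of the chow tumors. Elsewhere Nr0b2 differed by -0.49 ± 0.41 (adjusted p = 0.42) in FF alcohol, -0.27 ± 0.47 (0.7) in FF chow and 0.21 ± 0.41 (0.77) in dHEP alcohol.

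Tumor and non-tumor libraries shared a sample number in 11 cases, and there each tumor could be set against the liver of its number, although the labels do not say that a number marks an animal. Cyp8b1, Cyp27a1, Cyp7b1, Hsd3b7, Slc27a5, Baat and Nr1h4 were lower in the tumor in 11 of 11, Cyp7a1 and Akr1d1 in 9, and Nr0b2 in 7. Over the 8 enzymes the median tumor level was lowest in FF-581, at 14% of non-tumor liver, and highest in dHEP-550, at 62.5%, with dHEP-549 at 45% and dHEP-165 at 39.2%. In the same order, these 3 tumors had 1.66, 0.473 and 16.1 CPM of the tumor marker Gpc3, against at least 71 CPM in the other tumors. Their Afp, another tumor marker, was 50.6, 5.47 and 33.4 CPM, against at least 128.9 CPM. The sum of 6 tumor markers was not low in all 3, at 969.3 CPM or more in each dHEP chow tumor. The part of low tumor marker levels in the enzyme levels was not tested. These 3 tumors did not keep the same enzymes. Tumor dHEP-165 had 134.3% of Cyp7a1 and 89.3% of Cyp8b1 but 3.3% of Cyp7b1, 11% of Cyp27a1 and 8.5% of Nr0b2. Tumor dHEP-550 had 101.9% of Cyp7a1, 59.1% of Cyp8b1 and 142.3% of Akr1d1 but 2.8% of Cyp7b1. Tumor dHEP-549 had 122.4% of Akr1d1 and 69.7% of Slc27a5 but 20.6% of Cyp7a1 and 13.0% of Cyp8b1. FF-581 stood at the other end, with 0.9% of Cyp8b1, 1.2% of Cyp7a1 and 1.3% of Cyp7b1.

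**Figure D3:**
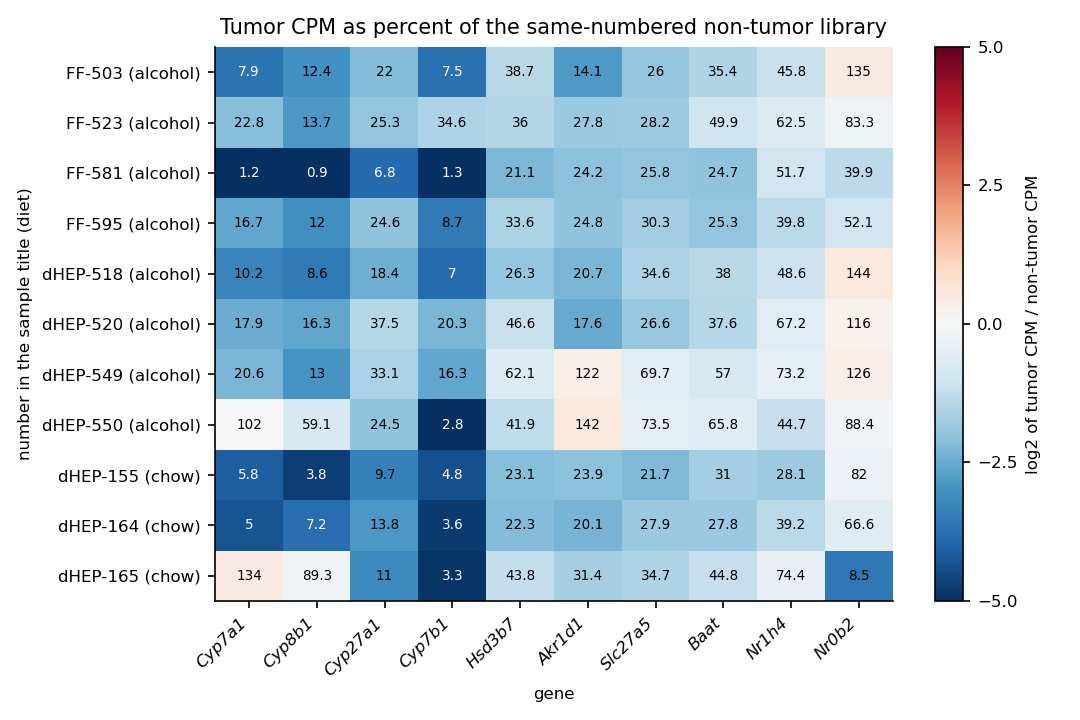
Tumor level as a percent of the non-tumor level of the same sample number, for 10 genes and 11 numbers. The Cyp7b1 column stays between 1.3 and 34.6%, whereas Cyp7a1 runs from 1.2% in FF-581 to 134.3% in dHEP-165 and Akr1d1 reaches 142.3% in dHEP-550.

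Markers of hepatocytes stayed abundant in tumors. The summed level of 9 hepatocyte markers was 62348.2 to 103247.3 CPM in non-tumor liver and 106105.9 to 207860.1 CPM in tumors, and none was at 0 in any library. Over all libraries Alb alone ran from 24253.4 to 144456.8 CPM and Apob from 18128.7 to 26771.8 CPM. The sum therefore says little about lower markers such as Hpd, at 74.5 to 2862.0 CPM. Of the 9, 3, 2, 3 and 1 rose and 2, 1, 1 and 2 fell in FF alcohol, FF chow, dHEP alcohol and dHEP chow. Over all genes 13.9%, 21.2%, 12.9% and 17.2% rose and 10.6%, 9.55%, 7.54% and 10.7% fell in the same order, so the 2 of 9 that rose in FF chow are near the share of all genes. The 1 of 9 that fell in FF chow and in dHEP alcohol is also near it, and the 1 of 9 that rose in dHEP chow is below it. Genes of the hepatocytes around the central vein fell with the enzymes: 7, 6, 6 and 8 of 9 tested were lower in the same order, and their sum was 9553.5 to 14142.7 CPM in non-tumor liver and 212.0 to 3554.6 CPM in tumors. Cyp2e1, the ethanol-oxidizing P450 of that zone, fell by 3.64 ± 0.49 on the log2 scale in FF alcohol (adjusted p = 1.6e-05). Cholangiocyte markers (7 genes) summed to 7.38 to 3172.0 CPM in tumors and 22.8 to 104.2 CPM in non-tumor liver, and 0, 0, 0 and 1 of 6 tested rose. Their highest sum was nearly all Spp1, at up to 3141.9 CPM, while Krt19 stayed at or below 2.26 CPM and was at 0 in 1 library. Stellate cell markers summed to 206.9 to 1929.8 CPM in tumors and 173.0 to 476.6 CPM in non-tumor liver, and 2, 3, 2 and 3 of 7 rose, beside those shares. Macrophage markers summed to 72.7 to 538.0 and 241.1 to 721.2 CPM, and 4, 0, 4 and 5 of 9 fell while 2 rose in FF chow. Those 2 of 9 are near the 21.2% of all genes that rose there. The 1 of 6 cholangiocyte markers that rose in dHEP chow is likewise near the 17.2% of that comparison. The part of other cell types and of zonation in the falls was not tested.

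The rest of the pathway was read from lists written from general knowledge. Among 13 further enzymes and peroxisomal proteins of bile acid synthesis tested, 9, 10, 6 and 7 fell in tumors of FF alcohol, FF chow, dHEP alcohol and dHEP chow, beside 10.6%, 9.55%, 7.54% and 10.7% of all genes. Their medians were -0.95, -1.25, -0.85 and -1.14 on the log2 scale, beside the medians over all genes given above. Scp2, the peroxisomal thiolase of side chain shortening, fell in all 4, by 1.62 ± 0.23 in FF alcohol (adjusted p = 2.8e-05) and 2.06 ± 0.27 in dHEP chow (9.4e-06). Hsd17b4, the peroxisomal bifunctional enzyme, fell by 1.21 ± 0.18 in FF alcohol (4.4e-05).

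Of that list only 1 enzyme rose in each comparison, a smaller share than among all genes. Over all genes 13.9%, 21.2%, 12.9% and 17.2% rose in FF alcohol, FF chow, dHEP alcohol and dHEP chow. The enzyme was Cyp39a1, the 7-alpha hydroxylase of 24-hydroxycholesterol. It had 11.5, 15.4, 26.8 and 12.2 CPM in FF alcohol non-tumor liver and 83.1, 73.2, 52.2 and 73.2 CPM in tumors (2.09 ± 0.44, adjusted p = 0.0012). FF chow gave 1.85 ± 0.51 (0.0085), dHEP alcohol 1.79 ± 0.44 (0.0059) and dHEP chow 1.69 ± 0.51 (0.016). The lowest tumor value, 11.2 CPM, was that of dHEP-165, and it lay below the 11.7 CPM of its non-tumor liver.

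Of 8 FXR and SHP target genes tested, 4, 3, 1 and 3 fell and 1 rose each time, beside the 10.6%, 9.55%, 7.54% and 10.7% of all genes that fell and the 13.9%, 21.2%, 12.9% and 17.2% that rose. The 1 of 8 that rose was below the share of all genes each time. The riser was Apoc2, an apolipoprotein, at 1831.8 ± 410.7 CPM in FF alcohol tumors (SD, n = 4) and 351.2 ± 229.1 CPM in non-tumor liver (n = 4; 2.60 ± 0.40, adjusted p = 5.4e-05). Abcb11, the bile salt export pump, fell by 1.23 ± 0.33 in FF alcohol (adjusted p = 0.0082) and 1.79 ± 0.38 in FF chow (0.0013). Among 9 bile acid carriers 4, 4, 4 and 5 fell, Abcb11 being counted in both lists. Slc10a1, which takes bile salts up from blood, fell in all 4, from 341.9 ± 23.8 to 48 ± 26.6 CPM in FF alcohol (-3.10 ± 0.50, adjusted p = 9.5e-05). Carriers that rose were Atp8b1 in dHEP alcohol (0.44 ± 0.12, adjusted p = 0.01) and Abcc4, an efflux pump of the sinusoidal side, in dHEP chow (2.62 ± 0.98, 0.048). Each is 1 of 9, below the 12.9% and 17.2% of all genes that rose there. Of 16 regulators of Cyp7a1, 6, 3, 4 and 4 fell and none rose, and the 3 in FF chow are to be read against 9.55% of all genes. Nr1i3, the receptor CAR, fell in all 4, most in dHEP chow (-3.96 ± 0.50, adjusted p = 6.8e-06). Fgf15, the intestinal hormone that represses Cyp7a1, was listed at 0 in all 28 libraries.

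Hepatocyte deletion of Il17ra was compared within each diet and tissue, dHEP minus FF, in fits of the 14 libraries of a tissue. No gene was called in any of the 4 comparisons (0% of 12651 genes in non-tumor liver and of 13205 in tumors) by limma, the only tool run. The deleted gene Il17ra was itself not called, although its FF and dHEP levels did not overlap in non-tumor liver. The lack of calls therefore does not show that no gene differed. Tumors dHEP-520 and dHEP-155 had 28.2 and 29.4 CPM of Il17ra, within the range of the FF tumors. At an unadjusted p below 0.05 there were 1077 genes in alcohol non-tumor liver, 588 in chow non-tumor liver, 833 in alcohol tumors and 378 in chow tumors, and 4, 2, 5 and 0 of the 10 genes were among them.

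Cyp7a1 had a higher mean in dHEP than in FF libraries each time. In alcohol non-tumor liver it was 489.6 ± 142.5 CPM (SD, n = 4) against 195.5 ± 116.9 CPM (n = 4), with 3 of 4 dHEP libraries above all FF libraries (log2 difference 1.48 ± 0.45, adjusted p = 0.41). In chow non-tumor liver it was 157.1 ± 63.2 (n = 3) against 66.5 ± 42.6 CPM (n = 3; 1.32 ± 0.52, adjusted p = 0.99). Tumors showed 143.7 ± 107.6 against 28 ± 32.8 CPM on alcohol (2.93 ± 1.0, adjusted p = 0.71), with 2.0 without tumor FF-581 and 3.70 without tumor FF-523, and 47.4 ± 64.4 against 7.1 ± 5.92 CPM on chow (1.86 ± 1.16, adjusted p = 1). The chow tumor mean of dHEP mice rests on tumor dHEP-165, and without it the difference was 0.71, while it was 2.48 without tumor dHEP-155. None passed the test. Averaged over both diets, a contrast added after the values had been seen, the difference was 1.40 ± 0.34 in non-tumor liver (adjusted p = 0.63) and 2.40 ± 0.76 in tumors (1), and again no gene was called in either (0%).

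Genotype groups did not overlap for some of the 10 genes. In alcohol non-tumor liver 1 gene was higher and 1 lower in dHEP mice, and 1 was higher in chow non-tumor liver and 1 in alcohol tumors. Such separation held for 3.91% of all genes in alcohol non-tumor liver, 11.5% in chow non-tumor liver, 3.54% in alcohol tumors and 5.44% in chow tumors. The 1 of 10 in chow non-tumor liver is near the share of all genes. Cyp27a1 was higher in every dHEP library than in every FF library on alcohol, at 435.2 to 463.0 against 374.8 to 408.8 CPM (0.21 ± 0.07, adjusted p = 0.49), and on chow (0.19 ± 0.09, 0.99). Nr0b2 was lower in dHEP alcohol non-tumor liver, at 9.74, 19.3, 16.4 and 14.7 CPM, than in FF liver, at 19.5, 33.5, 29.5 and 21.6 CPM (-0.76 ± 0.27, adjusted p = 0.48). In alcohol tumors Slc27a5 was the only separated gene of the 10 (0.96 ± 0.25, adjusted p = 0.65). Akr1d1 was at 71.5 ± 45.4 against 20 ± 9.39 CPM there (1.67 ± 0.53, adjusted p = 0.69), Baat at 117.2 ± 37.3 against 70.4 ± 19.4 CPM (0.71 ± 0.25, 0.73) and Cyp8b1 at 66.5 ± 56.3 against 24.1 ± 16.5 CPM (1.48 ± 1.01, 0.89). In chow tumors none separated.

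The alcohol diet was compared with chow within each genotype and tissue. None of the 10 genes was called, where 73 genes (0.577%) were called in FF non-tumor liver, 83 (0.656%) in dHEP non-tumor liver, none in FF tumors (0%) and 1 (0.00757%) in dHEP tumors. At an unadjusted p below 0.05 there were 1767, 1662, 718 and 1441 genes in the same order, and 5, 5, 0 and 2 of the 10. Groups did not overlap for 3 of the 10 in FF non-tumor liver, 5 in dHEP non-tumor liver, 1 in FF tumors and 1 in dHEP tumors, beside 9.3%, 17.3%, 10.9% and 5.66% of all genes.

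In non-tumor liver the mean of Cyp7a1, the first step of the classic route, was higher on alcohol and those of several other enzymes were lower, without a call. The FF means of Cyp7a1 were 195.5 CPM on alcohol and 66.5 CPM on chow (1.51 ± 0.49, adjusted p = 0.18), with overlap, and the dHEP means were 489.6 and 157.1 CPM (1.67 ± 0.49, adjusted p = 0.15), without overlap. Cyp27a1 was lower in every alcohol library than in every chow library of its genotype (-0.25 ± 0.08, adjusted p = 0.18 in FF and -0.23 ± 0.08, 0.23 in dHEP). Hsd3b7 differed by -0.52 ± 0.19 (0.23) and -0.55 ± 0.19 (0.23). Slc27a5 had 694.0 to 778.1 CPM in FF mice on alcohol and 976.0 to 1035.4 CPM on chow (-0.46 ± 0.12, adjusted p = 0.11), and Akr1d1 had 31.9 to 138.7 and 156.2 to 223.2 CPM there (-1.15 ± 0.42, 0.23). Nr0b2 in dHEP mice was at 15.1 ± 4.03 CPM on alcohol and 33.4 ± 13.6 CPM on chow (-1.05 ± 0.29, 0.12). Nr1h4 was higher in every dHEP alcohol library, at 138.2 to 176.1 CPM, than in dHEP chow liver, at 109.7 to 133.8 CPM. Baat was lower in every dHEP alcohol library, at 201.5 to 255.9 CPM, than in dHEP chow liver, at 260.6 to 264.5 CPM. Cyp8b1 differed little between diets, at 274.8 ± 94.7 and 263.2 ± 98.5 CPM in FF and 289.7 ± 83.1 and 267.9 ± 94.6 CPM in dHEP mice.

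Averaging the diet difference over both genotypes, a contrast added after the values had been seen, called 3 of the 10 genes in non-tumor liver. Cyp7a1 rose (342.5 ± 198.2 CPM, n = 8, against 111.8 ± 69.2 CPM, n = 6; 1.59 ± 0.34, adjusted p = 0.022), among 1.19% of all genes. Cyp27a1 (418.0 ± 34.5 against 494.4 ± 43.3 CPM; -0.24 ± 0.06, adjusted p = 0.033) and Hsd3b7 (361.8 ± 66.2 against 520.8 ± 74.4 CPM; -0.53 ± 0.13, adjusted p = 0.041) fell, as did 2.47% of all genes. Slc27a5 (-0.32 ± 0.09, adjusted p = 0.059), Nr0b2 (-0.72 ± 0.20, 0.071) and Akr1d1 (-0.80 ± 0.30, 0.16) were not called. The Cyp7a1 call was lost without chow library dHEP-165 (adjusted p = 0.067), FF-157 (0.056) or FF-159 (0.062). Those of Cyp27a1 and Hsd3b7 were each lost in 10 of 14 fits without 1 library, and that of Cyp27a1 also under median-of-ratios scaling (-0.21, adjusted p = 0.15). The same scaling moved the split over all genes from 151 higher and 312 lower to 281 and 301.

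**Figure D4:**
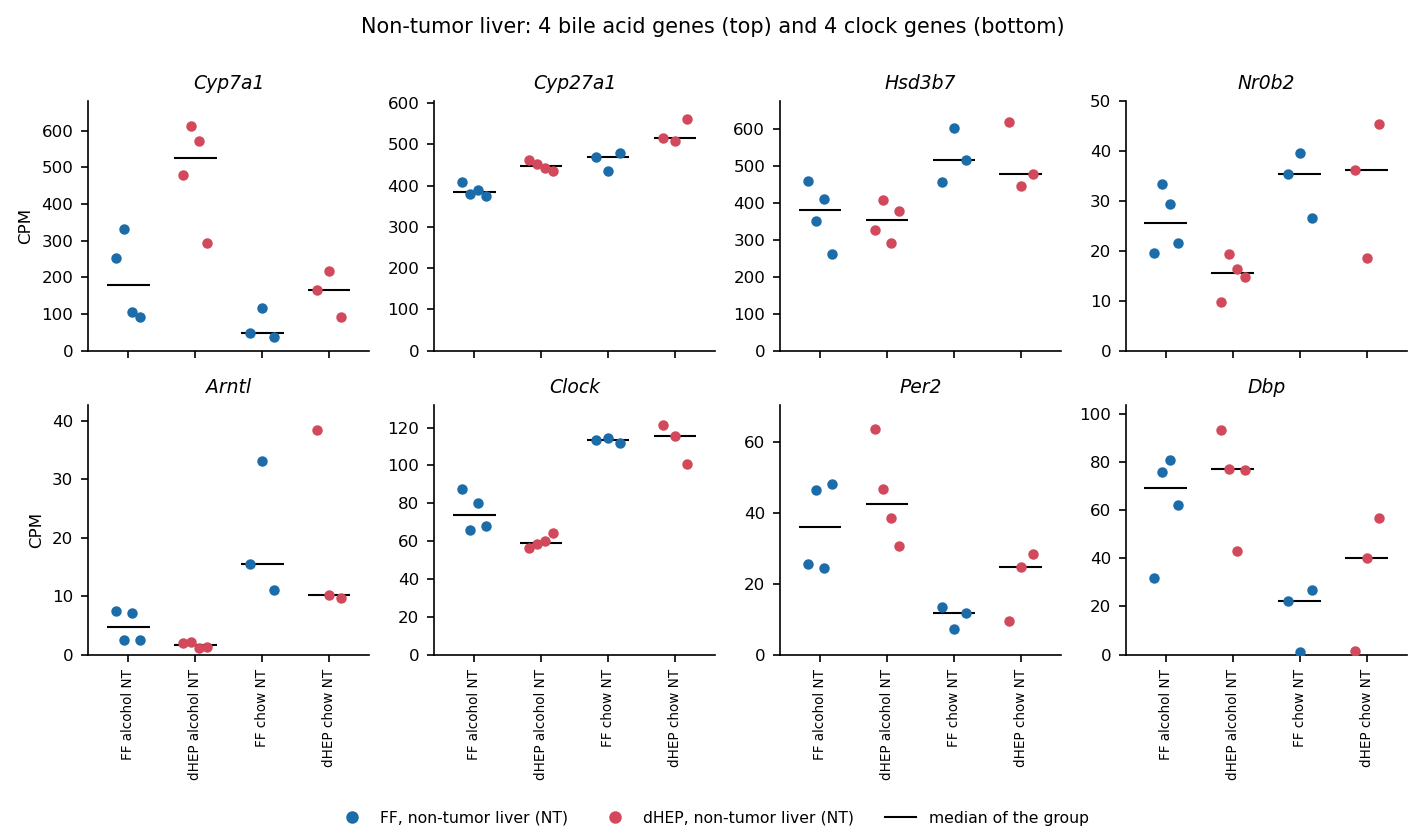
CPM of 4 bile acid genes and 4 clock genes in non-tumor liver by diet and genotype, with 1 point for each library (n = 4 per genotype on alcohol, n = 3 on chow) and a line at each group's median. The Cyp7a1 median is higher on alcohol in both genotypes, those of Cyp27a1 and Hsd3b7 are lower, and the clock genes Clock and Arntl separate all alcohol from all chow libraries.

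Circadian clock genes moved with diet in the same libraries. Of 12 clock and clock-driven genes, 2 rose and 2 fell on alcohol over both genotypes in non-tumor liver, where 1.19% of all genes rose and 2.47% fell. Clock fell from 112.8 ± 6.7 to 67.4 ± 10.9 CPM (-0.75 ± 0.07, adjusted p = 0.00076) and Arntl from 19.7 ± 12.8 to 3.26 ± 2.5 CPM (-2.25 ± 0.34, 0.0031), and no alcohol library reached a chow library for either. Per2 (1.39 ± 0.26, adjusted p = 0.011) and Per3 (1.87 ± 0.46, 0.038) rose. The part of the clock genes in the Cyp7a1 difference was not tested. None of the 12 was called in a tissue comparison.

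Other bile acid genes were called in the same contrast of diet over both genotypes, where 1.19% of all genes rose and 2.47% fell. They come from the lists of further enzymes (14 genes), FXR and SHP targets (10), regulators of Cyp7a1 (16) and carriers (11), which overlap. Whether these calls depend on single libraries or on scaling was not tested. Abcb11 fell (-0.59 ± 0.10, adjusted p = 0.0047), as did the uptake carriers Slc10a1 (-0.33 ± 0.08, 0.037) and Slco1a4 (-2.20 ± 0.47, 0.02) and the Cyp7a1 activator Nr5a2 (-0.35 ± 0.09, 0.037). Abcb4, the phospholipid transporter of the bile canaliculus (0.37 ± 0.07, adjusted p = 0.0075), and Por, the reductase that feeds electrons to P450 enzymes (0.73 ± 0.15, 0.017), rose.

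In tumors the diet difference of Cyp7a1 was 1.19 ± 1.08 (adjusted p = 0.97) in FF and 2.25 ± 1.08 (0.47) in dHEP mice, and 1.72 ± 0.76 over both (0.42). No gene was called over both genotypes in tumors (0%), where 1519 had an unadjusted p below 0.05. Slc27a5 was lower in all FF alcohol tumors, at 179.0 to 219.8 CPM, than in FF chow tumors, at 250.2 to 354.4 CPM. Cyp27a1 was higher in all dHEP alcohol tumors, at 85.1 to 169.7 CPM, than in dHEP chow tumors, at 49.7 to 69.8 CPM.

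Whether these effects differ between groups was tested as 6 interactions. No gene was called in any of them (0%), and the smallest adjusted p of the 10 genes was 0.71, for the difference between tissues of the diet effect on Cyp27a1 in dHEP mice. At an unadjusted p below 0.05 there were 870 genes for genotype by diet in non-tumor liver, 653 in tumors, 266 for genotype by tissue on alcohol, 421 on chow, and 801 and 867 for diet by tissue in FF and dHEP mice. A smaller fall in dHEP than in FF alcohol tumors was therefore not shown for any of the 10 genes.

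Genes whose levels followed the members most closely over the 28 libraries were found by Spearman correlation on log2(CPM + 1). The libraries share tissue, diet and genotype groups, so the correlation within groups, of deviations from the group means, is given beside it. Hsd3b7 was most like Adh4, an alcohol dehydrogenase (rho = 0.963, within-group r = 0.76), and Slc27a5 most like Gpld1 (0.959, 0.61). Baat was most like Abcb10 (0.951, 0.78), Nr1h4 like Glyat, a glycine acyltransferase (0.944, 0.69), and Cyp27a1 like Pon1, the serum paraoxonase (0.941, 0.71). Akr1d1 was most like Afmid (0.938, 0.77), Cyp8b1 like Gcdh (0.930, 0.65) and Cyp7b1 like Plekhb1 (0.924, 0.68). Cyp7a1 and Nr0b2 had weaker partners by rho, Sepsecs (0.848, 0.48) and Tusc1 (0.760, 0.53). For Cyp7a1, Pcyt1a (0.847, 0.64) and AI464131 (0.847, 0.78) were nearly as close, with a higher within-group r. Among the members themselves, Cyp7a1 and Cyp8b1 had a rho of 0.71 over the 14 tumors and 0.09 over the 14 non-tumor libraries, with a within-group r of 0.75. Cyp7a1 and Nr0b2 had a rho of -0.63 over non-tumor libraries and -0.22 over tumors, with a within-group r of -0.09.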

How the data were processed

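Gene-level CPM values (counts scaled by library total) were used as deposited. Per the submitters' processing notes the authors used STAR 2.5.1a, RSEM 1.3.0 and GRCm38, and each column sums to 1000000. The labels name polyA RNA and a stranded total RNA kit, so the RNA fraction is not settled, and they give no sex. Of values up to 20 reads, 84.8 to 86.9% per library were whole reads to within 0.1, too few for a count test. The highest Pearson r between 2 libraries was 0.9954, and none was taken as a duplicate. Gene symbols (for 21653 IDs) and positions were read from GENCODE, and promoter windows from RefSeq.

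Tests were run in limma 3.58.1 (R 4.3.3) on log2(CPM + 1), with variances moderated towards a trend on the mean. Genes needed at least 1 CPM in 3 or more of the libraries fitted. Fits used the 14 libraries of a tissue (genotype, diet) or all 28 (tissue, and interactions with tissue). Fold changes are on that scale, which understates the change of low genes. P-values were adjusted by Benjamini-Hochberg over all genes tested and called below 0.05. The code was tested on simulated data. Alternatives were median-of-ratios scaling, sample quality weights, a mean of at least 5 CPM as the filter or none, 0.5 as the pseudocount, the compared groups only, the sample number as a block, and fits without single libraries or those that stood apart.

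The 10 genes and all lists were chosen with earlier results of these data known. From each list at most the 4 called genes of smallest p per comparison were to be named. Cyp39a1 in FF alcohol, Slc10a1 in dHEP alcohol, Abcc4, Hnf4a, Nr5a2, Dbp and Fgf15 were named after their values were seen. Deviations of same-numbered tumor and non-tumor libraries from their group means had an r of 0.16 to 0.36 in FF alcohol. Libraries of different numbers were not compared in this way, so the r cannot show pairing. The main fits used no pairs, and the number was a block in alternative fits only. The r was -0.11 to 0.25 in dHEP alcohol and 0.07 to 0.19 in dHEP chow, and FF chow shares no numbers.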

Additional observations from a re-analysis of the deposited data

Results flagged for a closer look

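Cyp27a1 in FF alcohol tumors was marked because 1 library lay far from the other 3. Tumor FF-581 had 26.4 CPM, and the others had 90.1, 95.8 and 92 CPM. The gap to the nearest value made up 0.918 of the group's range. Chance marks about 5% of such groups, and 1 of 40 groups of 4 was marked.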

How the results depend on the processing

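Of 1102 alternative values for 71 printed differences, 1021 kept direction and side of the threshold, 71 lost the call, 9 gained it and 1 changed sign: Nr0b2 between FF chow tissues, 0.01 without tumor FF-169 (range -0.47 to 0.01 without 1 library). Another 89 differences were given as levels only, and 33 of them changed sign somewhere, none of these called. With sample quality weights 1 gene (Cyp7a1) was called for diet in FF non-tumor liver and 2 (Cyp7a1, Nr1h4) in dHEP non-tumor liver, where 1 (Cyp7a1) was called in the compared groups only. For diet over both genotypes in non-tumor liver 0 to 3 genes were called without 1 library, 1 without FF-523 and FF-581, and 1 without dHEP-155 and FF-158. Without 1 library, the tissue comparisons called 9 genes in FF alcohol, 6 to 9 in FF chow (6 without tumor FF-167), 6 to 7 in dHEP alcohol and 7 to 9 in dHEP chow, where the compared groups alone lost Cyp7a1 (adjusted p = 0.1), Cyp8b1 (0.12) and Nr0b2 (0.21). Median-of-ratios scaling moved the median over all genes by -0.15 in FF chow tissue and -0.12 in dHEP chow tissue. The cause of these changes was not tested. The sample number was used as a replicate block in fits of the compared groups, and is set beside those fits without it. Both called 9 genes in FF alcohol. In dHEP alcohol 8 genes were called without the block, Cyp7a1 among them (adjusted p = 0.022), and 7 with it, where Cyp7a1 stayed (0.044) and Slc27a5 was lost (0.052). In dHEP chow 7 were called without the block and 8 with it, where Cyp8b1 was called and Cyp7a1 (0.07) and Nr0b2 (0.13) were again not. The block changed no other call of the 10 genes. Libraries placed in 1 block share only a number. Without counts, no interval for counting error could be given.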

Other observations

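Genes of the hepatocytes around the portal vein, the zone opposite to that of Cyp7a1, were also measured. On alcohol 3 of the 9 fell in non-tumor liver over both genotypes, where 2.47% of all genes fell. They were Hal, the histidine ammonia lyase (-1.15 ± 0.18, adjusted p = 0.0038), Cps1, the first enzyme of the urea cycle (-0.60 ± 0.13, 0.024), and Gls2, the liver glutaminase (-0.65 ± 0.16, 0.043). Of the central vein genes 1 was called in that contrast, Cyp1a2 (-0.81 ± 0.20, adjusted p = 0.04), beside the same 2.47% of all genes. In tumors 3, 3, 1 and 5 of the 9 portal genes fell in FF alcohol, FF chow, dHEP alcohol and dHEP chow, and 1 rose in dHEP chow, beside 10.6%, 9.55%, 7.54% and 10.7% of all genes that fell. The 1 of 9 that fell in dHEP alcohol is near that share. The 1 of 9 that rose in dHEP chow is below the 17.2% of all genes that rose there. Their summed level in tumors ran from 2019.7 to 23309.8 CPM, and in non-tumor liver from 7600.6 to 15467.8 CPM.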
